A study of Mus musculus with 18 samples.

Results

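A group of 10 feedback regulators and target genes of the ERK pathway were followed by symbol through every library of the series. They were Dusp4, Dusp5, Dusp6, Spry2, Spry4, Spred1, Spred2, Etv4, Etv5 and Phlda1. All 10 were listed, under the same gene identifiers, among the 16533 genes of the liver table and the 15579 genes of the AML12 table. The livers came from male db/db mice (B6.Cg-dock7m Leprdb/++/J), which carry a mutated leptin receptor and become obese and diabetic. In 3 of these mice recombinant mouse serum albumin (rMSA) was injected intravenously at 1.5 mg per g of body weight, as 3 doses separated by 3 weeks within a period of 9 weeks, and the other 3 mice received saline. AML12 is an immortalised hepatocyte line, listed as wild type, that was established from a mouse carrying a transgene for human TGFA, a ligand of the epidermal growth factor receptor (EGFR). After a night without serum the cells were kept for 24 hours with 600 µM rMSA plus 10 nM insulin, with 600 µM rMSA, with 10 nM insulin or with vehicle, and 3 libraries were made of each. Because AML12 cells are routinely grown with insulin, dexamethasone and serum, the vehicle libraries describe cells withdrawn from these additions. No label says that the 3 AML12 libraries of a group were separate cultures, so the p-values measure the spread between libraries, which may be technical.

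When a growth factor binds its receptor, Ras, Raf, MEK and ERK are activated in turn, and ERK switches on genes that restrain the same cascade. Dual-specificity phosphatases of the DUSP family remove the activating phosphates from ERK, Sprouty proteins act between the receptor and Ras or Raf, and Spred proteins bring neurofibromin to the membrane, where it inactivates Ras. ETV4 and ETV5 are ETS transcription factors whose genes are held down by the repressor Capicua until ERK signalling relieves it. PHLDA1 is a pleckstrin homology-like protein induced by growth factors. In hepatocytes the pathway is driven mainly by ligands of EGFR and MET and accompanies growth and regeneration, and the study asked whether albumin acts on hepatocytes through EGFR.

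Octamers recognised by the repressor Capicua include those that start with TGAATGA or TGAATGG. Of its octamers only these 7-letter starts were searched. Both strands of the promoter windows that RefSeq gives for the members were used (GRCm38.p6, 250 bases before to 50 after a start). Windows were on hand for 6 of the 10 genes, 7 windows in all, and not for Dusp4, Spry4, Etv4 and Phlda1. Matches lay in the windows of Dusp5 and Dusp6 and in the second window of Etv5, and each is shown with up to 10 bases on either side, 5′ to 3′ on the strand of the gene, with the match in capitals. The stretches lie at chr19:53529097-53529123 for Dusp5 (plus strand), at chr10:99263088-99263114 for Dusp6 (plus strand), and at chr16:22438594-22438618, chr16:22438550-22438576 and chr16:22438482-22438508 for Etv5 (minus strand).
Dusp6: tccgtttttgTGAATGAcaaactcatt
Dusp5: ggacgcgcacTCATTCAcataaaacgc
Etv5, site 1: agttttcaTGAATGGgaaggctggg
Etv5, site 2: tcttgttttgTGAATGGggccgggcgc
Etv5, site 3: gctccatctcCCATTCAtaaaaccagg
The matches began 133 bases before the start of Dusp6 and 38 bases before that of Dusp5, and 242, 198 and 130 bases before the second Etv5 start, those of Dusp5 and of Etv5 site 3 being on the opposite strand. The second Etv5 start lies inside the gene, in an intron of its longer transcripts, and the Dusp5 stretch runs over the first base of the Dusp5 transcript in GENCODE M21. Of 32851 mouse promoter windows of this length, 3.75% held TGAATGA and 3.59% held TGAATGG. The ETS core CCGGAAG, in 8.86% of all windows, and the AP-1 site TGANTCA, in 7.81%, had no match in the 7 windows. The cyclic AMP response sequence TGACGTC, in 3.21% of all windows, matched once, 53 bases before the start of Spred2 on the opposite strand. The octamers of Capicua end in A, and 0 of the 5 matches shown were followed by it on the strand of the match (the next base was C at Dusp6 and G at the other 4), so none of them completes an octamer. No binding was measured, so a match is only a description of the letters.

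Expression was given as TPM, a share of transcripts corrected for gene length and scaled to the same total in each library, so levels of different genes can be set side by side. Read counts cannot be had from these values, so sequencing depth is unknown and no counting error is given. Insulin libraries 1 and 2 stood apart before any comparison was made. Ribosomal protein genes held 35.1% and 37.9% of all TPM in them, against 28.1% in insulin library 3 and 23.2% to 29.2% in the other 9 AML12 libraries. Medians over the tested genes came to 14.6 and 11.2 TPM in these libraries and lay between 16.2 and 22.6 in the other 10. Insulin library 3 lay inside the range of the vehicle libraries on both values, 27.9% to 29.2% and 19.1 to 20.9 TPM. Which insulin libraries better reflect the treatment was not tested. Hepatocyte markers (Alb, Apoa1, Ttr, Cps1, Hnf4a and Tat) summed to between 168 and 431 TPM over the AML12 libraries, with Cps1 listed at 0 in 3 of the 4 groups, and to between 49151 and 72829 TPM over the livers. Of the 5 cholangiocyte markers, the keratins Krt19 and Krt7 averaged 1316 and 262 TPM in vehicle AML12 cells and Sox9 averaged 15.6 TPM, while Epcam and Cftr had no value there. The hepatocyte and cholangiocyte markers thus meet the label of hepatocyte only in part. In AML12 cells values were given for only 3 of 6 stellate cell, 1 of 6 endothelial, 2 of 6 Kupffer cell and 2 of 5 lymphoid markers. The 2 of Kupffer cells were Cd68 and Csf1r, which exceeded 1 TPM in vehicle cells. The markers of the other types that had a value were under 1 TPM.

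Differences were tested with limma on log2(TPM + 1) over genes averaging 1 TPM or more, with p-values adjusted over all of them by the Benjamini-Hochberg method. This left 9 of the 10 members in each table, without Etv4 in liver and without Spry4 in AML12 cells. A fold change on this scale understates the change of a gene near 1 TPM.

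In AML12 cells albumin raised both ETV genes, Phlda1 and Dusp5. Etv4 and Phlda1 had the largest fold changes of the 9 tested members without insulin, and Phlda1 had the largest with insulin. Of the 9 members tested, 4 rose and 0 fell with rMSA against vehicle at an adjusted p under 0.05, where 7.8% of the 10826 genes were called (5.9% higher and 1.89% lower). Of the same 9 members, 4 rose and 0 fell with rMSA + insulin against insulin, where 17.3% were called (14.5% higher and 2.73% lower). Both counts consisted of Etv4, Etv5, Phlda1 and Dusp5. With a log2 fold change of at least 1 required as well, 3 members remained in each comparison (Etv4, Etv5 and Phlda1 without insulin, Etv5, Phlda1 and Dusp5 with it), against 1.52% and 2.29% of all genes. The median log2 fold change of the tested genes was 0.06 without insulin and 0.21 with it, and the medians of the 9 members were 0.56 and 0.62. Ribosomal protein genes held 23.2%, 24.7% and 26.5% of all TPM in rMSA libraries, against 27.9%, 29.2% and 29.2% in vehicle libraries, lower in every rMSA library. They held 26.7%, 28.9% and 25.5% in rMSA + insulin libraries, against 35.1%, 37.9% and 28.1% in insulin libraries, which overlapped. The part of this share in the members' differences was not tested. The 2 comparisons share no library, although their spread was estimated together. Centring or quantile normalization made the calls over all genes more even, with 607 higher and 333 lower after median centring and 724 and 623 after quantile normalization, against 639 and 205, for rMSA against vehicle. For rMSA + insulin against insulin they gave 707 and 740, and 935 and 888, against 1575 and 296. The called members were thus set against fewer higher genes there. They were 3 after median centring, without Etv4, and 4 after quantile normalization.

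**Figure D1:**
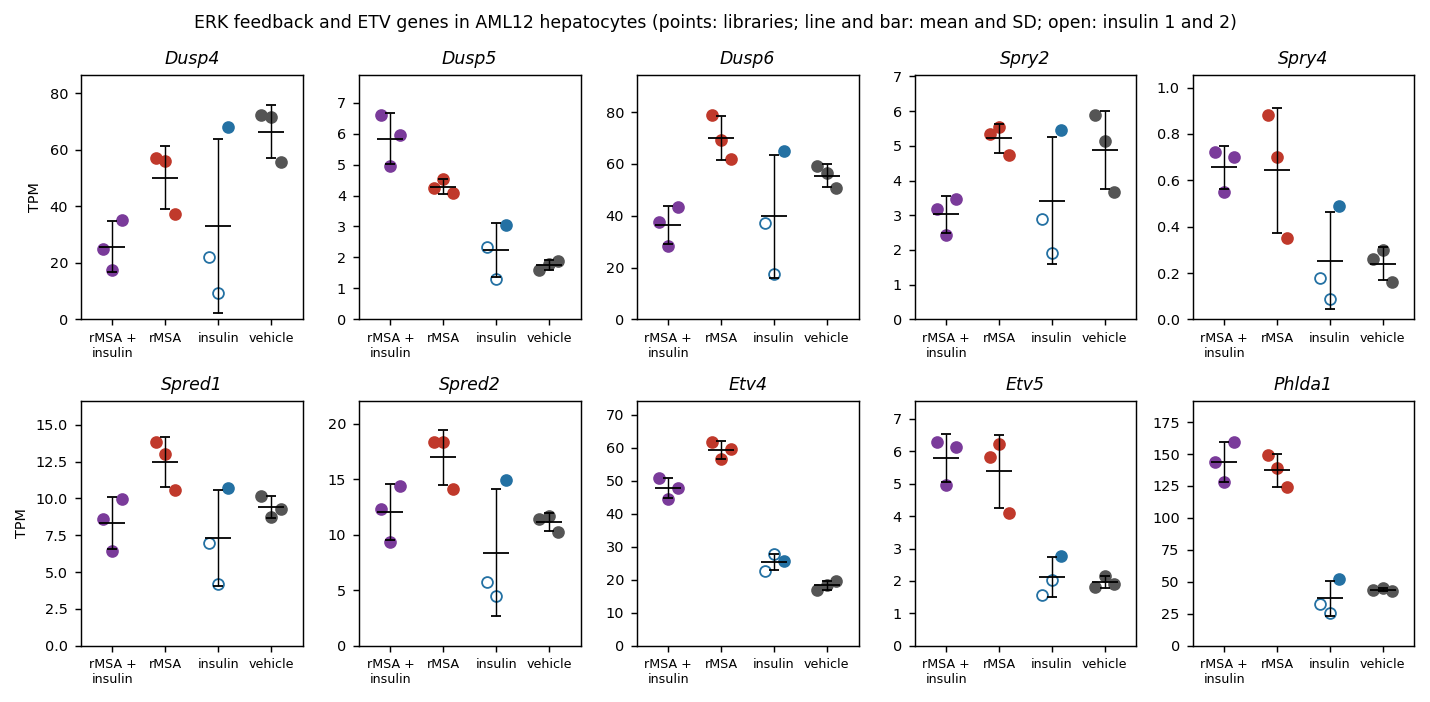
TPM of the 10 genes (y axis, from 0, a scale for each gene) in AML12 hepatocytes given rMSA + insulin, rMSA, insulin or vehicle for 24 hours. Points are libraries, lines and bars the mean and SD of 3, and open points are insulin libraries 1 and 2. For Etv4, Etv5, Phlda1 and Dusp5 each rMSA library sits above each vehicle library, and each rMSA + insulin library above each insulin library.

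Etv4, which encodes an ETS factor of the PEA3 group (gene identifier 18612, chromosome 11 from 101769747 to 101785310, minus strand), reached 61.79, 56.45 and 59.60 TPM in rMSA libraries, against 16.86, 18.35 and 19.52 TPM in vehicle libraries. Every rMSA library was far above every vehicle library. Its log2 fold change was 1.65 (SE 0.10, adjusted p = 5.62e-06). With insulin in both arms Etv4 was at 50.83, 44.52 and 47.88 TPM in rMSA + insulin libraries and at 22.61, 27.65 and 25.72 TPM in insulin libraries. Here too no library overlapped, and the log2 fold change was 0.89 (SE 0.10, adjusted p = 2.09e-04), or 0.68 above the median gene. After centring each library on its median this difference was 0.64 and just missed the threshold (adjusted p = 0.0520).

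Etv5, the closest relative of Etv4 in the list (gene identifier 104156, chromosome 16 from 22381313 to 22439570, minus strand), was expressed at a far lower level in vehicle cells. It measured 5.83, 6.23 and 4.11 TPM in rMSA libraries, against 1.80, 2.16 and 1.91 TPM in vehicle libraries. The log2 fold change was 1.10 (SE 0.18, adjusted p = 0.00293). In rMSA + insulin libraries it measured 6.30, 4.95 and 6.14 TPM, against 1.55, 2.02 and 2.77 TPM in insulin libraries, a log2 fold change of 1.14 (SE 0.18, adjusted p = 0.00150). Neither pair of groups overlapped.

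Phlda1 (gene identifier 21664, chromosome 10 from 111506286 to 111508649, plus strand) was the most abundant member in AML12 cells with albumin. Its level was 149.54, 138.90 and 123.93 TPM in rMSA libraries, against 43.43, 45.07 and 42.78 TPM in vehicle libraries. The vehicle libraries lay close together, and the log2 fold change was 1.63 (SE 0.20, adjusted p = 5.65e-04). With insulin the level was 143.62, 128.46 and 159.72 TPM in rMSA + insulin libraries, against 32.83, 25.91 and 52.07 TPM in insulin libraries, a log2 fold change of 1.99 (SE 0.20, adjusted p = 9.86e-05). Insulin libraries 1 and 2 were the 2 lowest of the 12. Without them the log2 fold change was 1.44 (adjusted p = 6.32e-05). In GENCODE M21, 727 of the 2205 exonic bases of Phlda1 are shared with Gm28592, a noncoding gene on the opposite strand, and the strand setting of the counting is not given, so reads of the 2 genes may be mixed.

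Dusp5, which encodes a nuclear phosphatase of ERK (gene identifier 240672, chromosome 19 from 53529145 to 53541809, plus strand), had 4.23, 4.55 and 4.07 TPM in rMSA libraries, against 1.58, 1.78 and 1.90 TPM in vehicle libraries. The log2 fold change was 0.94 (SE 0.18, adjusted p = 0.00946). It had 6.59, 4.96 and 5.96 TPM in rMSA + insulin libraries and 2.35, 1.32 and 3.06 TPM in insulin libraries, a log2 fold change of 1.11 (SE 0.18, adjusted p = 0.00236). All 6 albumin libraries were above all 6 others. When only the groups compared were fitted, the difference with insulin missed the threshold (adjusted p = 0.0791). An antisense gene, AC137853.2, covers 547 of the 2473 exonic bases of Dusp5, and its reads could not be separated.

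The other phosphatases did not pass in the fit of all 4 groups. Dusp6, the cytoplasmic phosphatase specific for ERK (gene identifier 67603, chromosome 10 from 99263231 to 99267489, plus strand), had 78.75, 69.29 and 61.72 TPM in rMSA libraries, against 59.33, 56.45 and 50.56 TPM in vehicle libraries. The groups did not overlap, but the log2 fold change of 0.33 (SE 0.36) was within the spread estimated over all 12 libraries (adjusted p = 0.808). Fitted on the rMSA and vehicle libraries alone, which leaves out the scattered insulin libraries, the same difference passed (adjusted p = 0.0364). Dusp4, a nuclear phosphatase of ERK and of the stress kinases (gene identifier 319520, chromosome 8 from 34807610 to 34819894, plus strand), had 57.07, 56.10 and 37.21 TPM in rMSA libraries, against 72.11, 71.37 and 55.57 TPM in vehicle libraries. These groups overlapped, and the log2 fold change was -0.41 (SE 0.54, adjusted p = 0.859).

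Spred and Sprouty proteins act on Ras and Raf. Spred2 had 18.39, 18.39 and 14.13 TPM in rMSA libraries, against 11.43, 11.73 and 10.25 TPM in vehicle libraries, a log2 fold change of 0.56 (SE 0.33, adjusted p = 0.454). Spred1 had 13.85, 12.98 and 10.58 TPM in rMSA libraries, against 10.19, 8.72 and 9.25 TPM in vehicle libraries, a log2 fold change of 0.37 (SE 0.26, adjusted p = 0.573). Neither overlapped, and both passed when only the rMSA and vehicle libraries were fitted (adjusted p = 0.00824 for Spred2 and 0.0469 for Spred1). That fit called 7 of the 9 members, all higher, and 24.3% of all genes (16.9% higher and 7.39% lower). Spry2, a Sprouty, had 5.34, 5.55 and 4.75 TPM in rMSA libraries and 5.88, 5.13 and 3.66 TPM in vehicle libraries, which overlapped (log2 fold change 0.09, SE 0.26, adjusted p = 0.956). Spry4, its relative, was too low to be tested, at 0.88, 0.70 and 0.35 TPM in rMSA libraries, against 0.26, 0.30 and 0.16 TPM in vehicle libraries. Of the 9 tested members, 7 were higher in every rMSA library than in every vehicle library and 0 were lower in every one, while 25.5% of all genes were higher and 14.2% lower in this sense.

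For these genes the outcome with insulin depended on which insulin libraries were used. Dusp6 had 37.40, 28.45 and 43.33 TPM in rMSA + insulin libraries, against 37.23, 17.34 and 64.81 TPM in insulin libraries. Dusp4 had 24.94, 17.30 and 34.99 TPM in rMSA + insulin libraries, against 21.97, 9.42 and 67.87 TPM in insulin libraries. For both genes the 3 rMSA + insulin libraries lay inside the range of the insulin libraries, and the log2 fold changes were 0.04 for Dusp6 and 0.02 for Dusp4 (adjusted p = 0.949 and 0.986). Set against insulin library 3 alone, with the spread taken from the other groups, Dusp4 was lower by a log2 of 1.42 (log2 fold change -1.42, adjusted p = 0.0125). On the same basis Dusp6 had a log2 fold change of -0.84 (adjusted p = 0.0137) and Spry2 one of -0.69 (adjusted p = 0.0397). That comparison called 7 of the 9 members, 4 higher and 3 lower, while it called 3276 genes in all, or 30.3% (13.2% higher and 17% lower). The 4 higher members were again Etv4, Etv5, Phlda1 and Dusp5. Of the remaining members, Spred2 was at 12.35, 9.36 and 14.36 TPM in rMSA + insulin libraries, against 5.74, 4.48 and 14.97 TPM in insulin libraries (log2 fold change 0.62, adjusted p = 0.237). Spred1 was at 8.59, 6.46 and 9.94 TPM with rMSA + insulin, against 6.96, 4.21 and 10.70 TPM with insulin, and Spry2 at 3.19, 2.44 and 3.46 TPM with rMSA + insulin, against 2.90, 1.90 and 5.46 TPM with insulin. Both overlapped, with log2 fold changes of 0.23 and -0.06. Spry4 had 0.72, 0.55 and 0.70 TPM with rMSA + insulin, against 0.18, 0.09 and 0.49 TPM with insulin.

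**Figure D2:**
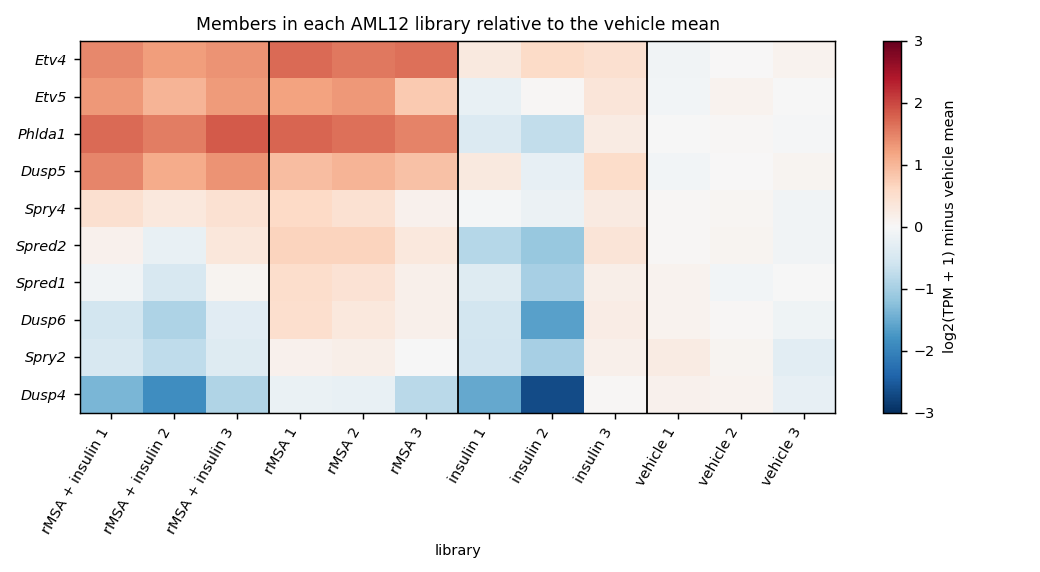
Log2(TPM + 1) of the 10 genes (rows) in each of the 12 AML12 libraries (columns), minus the mean of the vehicle libraries; red is higher and blue is lower. Etv4, Etv5, Phlda1 and Dusp5 are red in all 6 albumin libraries, and Dusp4, Dusp6 and Spry2 are blue in the rMSA + insulin libraries and in insulin libraries 1 and 2.

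Insulin alone was compared with vehicle to see how the members respond without albumin. With limma, 0 of the 9 members and 0 of the 10826 genes passed (0% called), while 2 of the 9 members and 3969 genes, or 36.7%, had an unadjusted p under 0.05. Insulin library 3 was above all vehicle libraries for 8 of the 10 genes, as it was for 32.1% of the 10826 genes. Insulin library 1 was below all vehicle libraries for 7 of the 10 genes and insulin library 2 for 8, with 6 below in both, as these libraries were for 74.5%, 74.7% and 67.9% of the 10826 genes. Etv4 alone was above all vehicle libraries in all 3 insulin libraries, at 22.61, 27.65 and 25.72 TPM, against 16.86, 18.35 and 19.52 TPM in vehicle libraries, and its log2 fold change of 0.45 (SE 0.10) stood 0.75 above the median gene, which was at -0.30. Its adjusted p was 0.135, and 4.35% of genes were higher in every insulin library. Without insulin library 3, 7 of the 9 members passed, 1 higher (Etv4) and 6 lower, led by Dusp4 at a log2 fold change of -2.11 (adjusted p = 0.00202), and 7415 genes passed, or 68.5% (7.14% higher and 61.4% lower). Without insulin libraries 1 and 2, 0 of the 9 members and 0.148% of genes passed.

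Adding insulin to albumin lowered no member past the threshold in the fit of all 12 AML12 libraries without further normalization. With rMSA + insulin against rMSA, 0 of the 9 members passed, where 4.05% of genes were called (2.95% higher and 1.1% lower, or 319 and 119 genes). These became 619 and 758 genes after median centring and 1048 and 870 after quantile normalization. Median centring then called 4 members, 2 higher and 2 lower (Dusp6, adjusted p = 0.0423, and Spry2, adjusted p = 0.0498). Quantile normalization called 2, 1 higher and 1 lower (Dusp6, adjusted p = 0.0342). An unadjusted p under 0.05 was found for 3 of the 9 members and for 2914 genes, or 26.9%. The groups did not overlap for 6 of the 9 members, 1 higher and 5 lower, while they did not overlap for 55.7% of all genes (18.6% higher and 37.1% lower). Dusp6 had 37.40, 28.45 and 43.33 TPM in rMSA + insulin libraries, against 78.75, 69.29 and 61.72 TPM in rMSA libraries, a log2 fold change of -0.94 (SE 0.36, adjusted p = 0.146). Dusp4 had 24.94, 17.30 and 34.99 TPM with rMSA + insulin, against 57.07, 56.10 and 37.21 TPM in rMSA libraries (log2 fold change -0.96, SE 0.54, adjusted p = 0.250). Spry2 had 3.19, 2.44 and 3.46 TPM with rMSA + insulin, against 5.34, 5.55 and 4.75 TPM in rMSA libraries (log2 fold change -0.63, adjusted p = 0.162). Dusp5 was the only tested member higher in every rMSA + insulin library, at 6.59, 4.96 and 5.96 TPM against 4.23, 4.55 and 4.07 TPM with rMSA (log2 fold change 0.37, adjusted p = 0.217). This comparison contains no insulin-only library, yet those libraries set part of its estimated spread. With only the rMSA + insulin and rMSA libraries in the fit, 6 members passed, 1 higher and 5 lower, with an adjusted p of 0.00637 for Dusp6 and 0.0193 for Dusp4, while 42.7% of all genes passed (12% higher and 30.7% lower). Without insulin library 2, 5 members passed, 1 higher and 4 lower, and 31.2% of genes (10.6% higher and 20.7% lower). Without insulin library 3, 6 members passed, 0 higher and 6 lower, and 30.8% of genes (9.65% higher and 21.2% lower).

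Whether albumin changed a member by a different amount with insulin than without it was tested by the interaction. Of the 9 members 0 passed (0.0369% of genes were called), and 1 member had an unadjusted p under 0.05, as did 698 genes, or 6.45%. That member was Etv4, with a log2 difference of -0.76 (SE 0.14, adjusted p = 0.197), the albumin effect being smaller with insulin. Without insulin library 3 the difference was -0.74 and passed (adjusted p = 0.0326).

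Ratios of 2 members within a library do not depend on how the library was scaled, and they were formed after the values had been seen. The ratio of Phlda1 to Dusp6 was 3.84, 4.52 and 3.69 in rMSA + insulin libraries, 1.90, 2.0 and 2.01 in rMSA libraries, 0.882, 1.49 and 0.803 in insulin libraries, and 0.732, 0.798 and 0.846 in vehicle libraries. Libraries with rMSA + insulin were above those with rMSA, and those with rMSA were above every library without it. Insulin and vehicle libraries overlapped, and insulin library 2 was the highest of them. Etv4 over Dusp6 ranged from 0.785 to 0.966 in rMSA libraries, against 0.284 to 0.386 in vehicle libraries, but insulin library 2 reached 1.59 and so lay above the 3 rMSA + insulin libraries. The ratios show that the members changed unequally and not which of them moved.

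**Figure D3:**
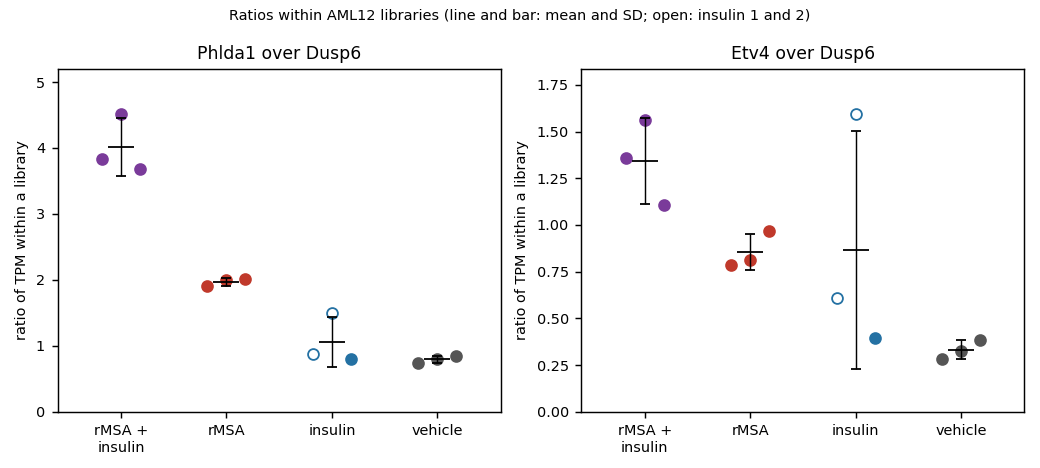
TPM of Phlda1 and of Etv4 divided by that of Dusp6 in the same library (y axis, a ratio from 0) for the 4 AML12 groups. Points are libraries, lines and bars the mean and SD of 3, and open points are insulin libraries 1 and 2. The Phlda1 ratio lies between 3.69 and 4.52 with rMSA + insulin, near 2 with rMSA, and under 1.5 in the other groups.

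Across the 12 AML12 libraries the members were put into a pair of sets, which were chosen after the values had been seen. Pearson's r of log2(TPM + 1) was 0.738 to 0.957 among Dusp4, Dusp6, Spry2, Spred1 and Spred2 and 0.849 to 0.962 among Etv4, Etv5, Phlda1 and Dusp5, against -0.193 to 0.723 between the sets. Without insulin libraries 1 and 2, r was 0.359 to 0.931 in the Dusp6 set, 0.890 to 0.977 in the Etv4 set and -0.736 to 0.548 between them. By rank (Spearman's correlation over the 12 libraries) the ranges overlapped, at 0.536 to 0.972 in the Dusp6 set, 0.685 to 0.895 in the Etv4 set and -0.280 to 0.757 between them. The member most like each gene lay in its own set, which carries no weight because the sets were chosen from these values. That member was Spred1 for Dusp6 (r = 0.957), Spry2 for Dusp4 (0.939), Etv5 for both Etv4 (0.917) and Phlda1 (0.962), and Phlda1 for Dusp5 (0.933). Among the genes most like Dusp6 of all those tested were Perp, Morf4l1, Laptm4b and Dhx9, with r from 0.989 to 0.993, and those least like it were Ftl1 (r = -0.982) and Acot13 (-0.978). Without insulin libraries 1 and 2, r with Dusp6 was 0.974 to 0.992 for these 4 genes and -0.982 and -0.974 for Ftl1 and Acot13. Libraries of a group share their treatment, and insulin libraries 1 and 2 lay below all vehicle libraries for each gene of the Dusp6 set and for Phlda1. These values therefore describe the libraries and carry no p.

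In the livers of db/db mice another member led. Of the 9 tested members, 3 passed with rMSA against saline, where 30.2% of the 11398 genes were called (21.8% higher and 8.38% lower). Dusp6 and Dusp5 rose and Spry4 fell, and Dusp6 was the only member with a log2 fold change of at least 1, as were 5.94% of all genes. The call of Dusp5 was lost under 9 of 12 alternatives and that of Spry4 under 6 of 12. A share of 3 in 9 is close to that of all genes. After median centring 1642 genes were higher and 1496 lower, and after quantile normalization 1774 and 1671, against 2487 and 955. The median log2 fold change was 0.12 over all genes and -0.02 over the 9 members. Ribosomal protein genes held 4.0%, 4.79% and 4.19% of all TPM in rMSA livers, against 3.46%, 3.35% and 3.47% in saline livers, higher in every rMSA liver, and the part of this share in the differences was not tested. In bulk tissue fewer cells of a type and less RNA per cell cannot be told apart.

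**Figure D4:**
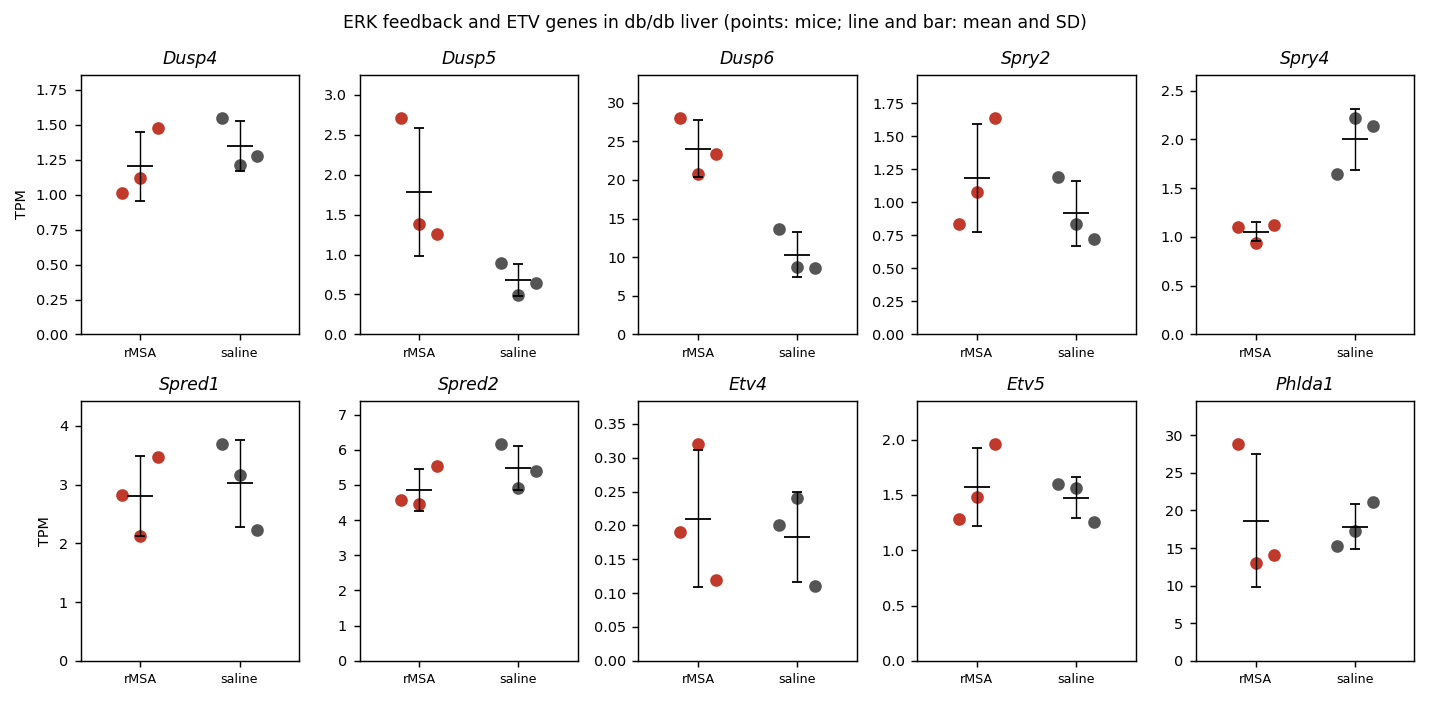
TPM of the 10 genes (y axis, from 0, a scale for each gene) in livers of db/db mice given rMSA or saline. Points are mice, lines and bars the mean and SD of 3. Dusp6 and Dusp5 are higher in every rMSA liver and Spry4 is lower in every one, while the other genes overlap.

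Dusp6 measured 28.03, 20.77 and 23.37 TPM in rMSA livers, against 13.69, 8.78 and 8.55 TPM in saline livers. The lowest rMSA liver was above the highest saline liver. The means were 24.1 ± 3.68 TPM in rMSA livers and 10.3 ± 2.90 TPM in saline livers (SD, n = 3 each). The log2 fold change was 1.16 (SE 0.19, adjusted p = 0.00289), or 1.04 above the median gene, and it passed under every alternative tried, between 0.93 and 1.36.

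Dusp5 had 2.71, 1.38 and 1.26 TPM in rMSA livers, against 0.89, 0.49 and 0.65 TPM in saline livers. Its saline mean was below the minimum of 1 TPM, so it was tested only because of its level in rMSA livers. The log2 fold change was 0.70 (SE 0.22, adjusted p = 0.0437), and it missed the threshold without any 1 of 5 of the 6 livers, the exception being rMSA liver 3 (adjusted p from 0.0578 to 0.141 in those 5), and after median centring (adjusted p = 0.0888). Spry4, a Sprouty that blocks activation of Raf (chromosome 18 from 38586247 to 38601347, minus strand), had 1.10, 0.94 and 1.12 TPM in rMSA livers, against 1.64, 2.22 and 2.14 TPM in saline livers. Its log2 fold change was -0.54 (SE 0.15, adjusted p = 0.0291). This call too was lost without any 1 of 5 of the livers, the exception being saline liver 1 (adjusted p from 0.0598 to 0.111 in those 5).

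Phlda1 and Etv5 did not pass in liver. Phlda1 had 28.82, 12.99 and 14.09 TPM in rMSA livers, against 15.21, 17.22 and 21.15 TPM in saline livers, and rMSA liver 1 was the highest of the 6 while rMSA livers 2 and 3 were the lowest. Its log2 fold change was -0.02 (SE 0.28, adjusted p = 0.971). Etv5 had 1.28, 1.48 and 1.96 TPM in rMSA livers, against 1.6, 1.56 and 1.26 TPM in saline livers (log2 fold change 0.05, SE 0.16, adjusted p = 0.848). Etv4 was at 0.19, 0.32 and 0.12 TPM in rMSA livers and at 0.20, 0.24 and 0.11 TPM in saline livers, too low to be tested. Dusp4 had 1.01, 1.12 and 1.48 TPM in rMSA livers, against 1.55, 1.21 and 1.28 TPM in saline livers (log2 fold change -0.09, adjusted p = 0.705). Spred2 was at 4.47 to 5.54 TPM in rMSA livers and 4.92 to 6.16 TPM in saline livers, Spred1 at 2.12 to 3.47 TPM in rMSA and 2.22 to 3.69 TPM in saline livers, and Spry2 at 0.84 to 1.64 TPM in rMSA and 0.72 to 1.19 TPM in saline livers, and each of these overlapped. Spry2, like Dusp5, averaged under 1 TPM in saline livers. The ratio of Phlda1 to Dusp6 was 1.03, 0.625 and 0.603 in rMSA livers, against 1.11, 1.96 and 2.47 in saline livers, lower in every rMSA liver.

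Levels in the livers and in AML12 cells come from separately scaled tables and were not tested against each other. Within saline livers Phlda1 (mean 17.9 TPM) and Dusp6 (10.3 TPM) were the most abundant members, followed by Spred2 (5.49 TPM) and Spred1 (3.02 TPM), and the other 6 averaged 2.0 TPM or less. Within vehicle AML12 cells the order was Dusp4 (66.4 ± 9.34 TPM), Dusp6 (55.4 ± 4.47 TPM), Phlda1 (43.8 ± 1.18 TPM) and Etv4 (18.2 ± 1.33 TPM), and then Spred2, Spred1, Spry2, Etv5, Dusp5 and Spry4 (SD, n = 3). Dusp4 and Dusp6 overlapped there, as did the last 2 tested genes of the order, Etv5 and Dusp5.

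**Figure D5:**
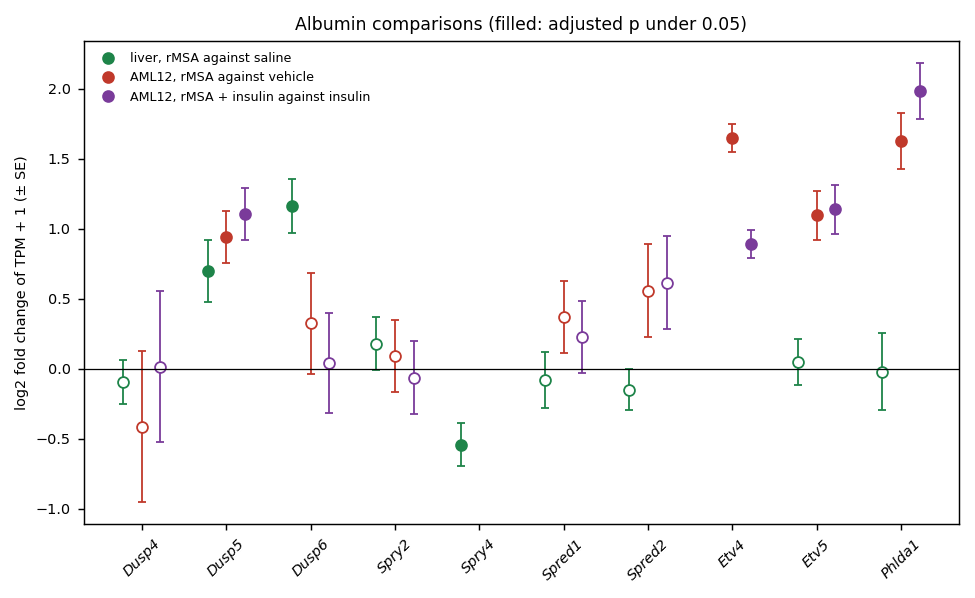
Log2 fold change of TPM + 1 with its SE (y axis) for each gene, for rMSA against saline in liver (green), rMSA against vehicle in AML12 (red) and rMSA + insulin against insulin in AML12 (purple). Filled points have an adjusted p under 0.05. Dusp5 is filled in all 3 comparisons, Dusp6 and Spry4 in liver alone, and Etv4, Etv5 and Phlda1 in both AML12 comparisons. In liver Dusp5 was tested only because of its level in rMSA livers, and its call was lost under 9 of 12 alternatives. That of Spry4 was lost under 6 of 12. Spry4 in AML12 cells and Etv4 in liver were too low to be tested and have no point.

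Some cell markers differed with treatment in the livers, where 21.8% of all genes were called higher and 8.38% lower. Markers of stellate cells and fibroblasts (6 genes) summed to between 249.9 and 331 TPM in rMSA livers, against 109 to 232 TPM in saline livers, and 4 of the 6 rose. Of the hepatocyte markers, 2 of 6 rose and 3 fell, with sums of 67787 to 72829 TPM in rMSA livers and 49151 to 68980 TPM in saline livers. Among cholangiocyte markers 2 of 4 tested rose, with sums of 8.85 to 14.1 TPM in rMSA livers and 4.28 to 7.18 TPM in saline livers. Endothelial markers (1 of 6 rose) summed to 149 to 150.4 TPM in rMSA livers and 108 to 154 TPM in saline livers, and Kupffer cell markers (1 of 6 rose) to 276 to 414 TPM in rMSA livers and 263 to 413 TPM in saline livers. Lymphocyte markers, of which 1 of 4 rose and 1 fell, summed to 4.55 to 8.21 TPM in rMSA livers and 4.65 to 13.8 TPM in saline livers. No marker list had a gene at 0 in all livers of a group, and the part of these cells in the Dusp6, Dusp5 and Spry4 differences was not tested.

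Of 28 kinases, receptors and other cascade genes tested with rMSA against vehicle in AML12 cells, 2 rose, 1 fell and 25 did not pass, beside 5.9% higher and 1.89% lower of all genes. Fgfr4, a liver fibroblast growth factor receptor, averaged 3.69 ± 0.96 TPM with rMSA and 8.67 ± 1.09 TPM with vehicle (SD, n = 3 each, log2 fold change -1.06, adjusted p = 0.00546). Erbb3, an EGFR relative with little kinase activity of its own, rose by a log2 of 0.77 (adjusted p = 0.0131), and Rps6ka1, a kinase activated by ERK, by 0.46 (adjusted p = 0.0195). With insulin in both arms 2 of 28 rose and 3 fell, beside 14.5% and 2.73% of all genes, among them Rps6ka1 (log2 fold change 0.54) and Fgfr4 (-0.96), Mapk3, which encodes ERK1 (-0.25), and Fgfr2 (-1.06). In liver 4 of 28 rose and 2 fell, beside 21.8% and 8.38% of all genes. Rps6ka1 averaged 27.8 ± 1.74 TPM in rMSA livers and 10.3 ± 2.14 TPM in saline livers (SD, n = 3 each, log2 fold change 1.37, adjusted p = 4.68e-04). Egfr averaged 20.5 ± 4.71 TPM in rMSA livers and 43.9 ± 4.42 TPM in saline livers (SD, n = 3 each, log2 fold change -1.08, adjusted p = 0.00194). Nras rose (log2 fold change 0.78, adjusted p = 0.00935), and Fgfr4 fell (log2 fold change -0.53, adjusted p = 0.0137). Rps6ka1 thus passed in all 3 albumin comparisons, and Fgfr4 was lower in all 3.

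Among the relatives of the members, 2 of 10 tested rose and 0 fell in each AML12 albumin comparison, and both were again Phlda3 and Spred3. Of all genes 5.9% rose without insulin and 14.5% with it. Phlda3, a pleckstrin homology-like protein that restrains AKT, averaged 197 ± 2.36 TPM with rMSA and 146 ± 1.77 TPM with vehicle (SD, n = 3 each, log2 fold change 0.42, adjusted p = 0.00157). Spred3 averaged 10.1 ± 1.58 TPM with rMSA and 5.57 ± 0.14 TPM with vehicle (SD, n = 3 each, log2 fold change 0.75, adjusted p = 0.00709). With insulin in both arms the log2 fold changes were 0.82 for Phlda3 and 0.91 for Spred3. In liver 3 of 9 rose and 2 fell, beside the same 21.8% and 8.38% of all genes. Dusp1, an immediate early phosphatase that acts mainly on the stress kinases, averaged 53.7 ± 9.26 TPM in rMSA livers and 127 ± 30.3 TPM in saline livers (SD, n = 3 each, log2 fold change -1.22, adjusted p = 0.00196). Dusp10, also a phosphatase of stress kinases, rose (log2 fold change 0.94, adjusted p = 0.00435), as did Phlda3 (0.97, adjusted p = 0.0244). Errfi1, an inhibitor of EGFR, averaged 410.2 ± 183 TPM in rMSA livers and 744 ± 32.8 TPM in saline livers (SD, n = 3 each, log2 fold change -0.96, adjusted p = 0.0342).

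Some other genes known to follow ERK had larger fold changes than any tested member. This list, like those above, was chosen with earlier results of these data known, so its counts are a description and not a test of such genes. With rMSA against vehicle 4 of 14 rose, 1 fell and 9 did not pass, where 5.9% of all genes rose and 1.89% fell. The median log2 fold change of the list was 0.05 here, against 0.06 over all genes. It was 0.37 against 0.21 with insulin in both arms, 0.15 against -0.15 with rMSA + insulin against rMSA, and 0.52 against 0.12 in liver. Fosl1, an AP-1 subunit, averaged 20.6 ± 2.72 TPM with rMSA and 3.75 ± 0.23 TPM with vehicle (SD, n = 3 each, log2 fold change 2.18, adjusted p = 2.10e-05). Ier3, an early response gene, averaged 526 ± 5.86 TPM with rMSA and 163 ± 6.91 TPM with vehicle (SD, n = 3 each, log2 fold change 1.69, adjusted p = 5.14e-08). Areg, an EGFR ligand, rose by a log2 of 1.11 (adjusted p = 0.00178). Egr1, an immediate early transcription factor, fell, and averaged 1.28 ± 0.15 TPM with rMSA and 5.02 ± 0.96 TPM with vehicle (SD, n = 3 each, log2 fold change -1.39, adjusted p = 0.0201). With insulin in both arms 6 of 14 rose and 0 fell, where 14.5% of all genes rose and 2.73% fell, led by Ier3 (log2 fold change 2.37), Fosl1 (3.57), Areg (2.25) and Ereg, another EGFR ligand (2.13). With rMSA + insulin against rMSA, where 0 members passed, 4 of these 14 genes rose and 0 fell, where 2.95% of all genes rose and 1.1% fell. Fosl1 averaged 54.6 ± 5.71 TPM with rMSA + insulin and 20.6 ± 2.72 TPM with rMSA (SD, n = 3 each, log2 fold change 1.37, adjusted p = 0.00182), and Areg had a log2 fold change of 1.38, Ier3 one of 0.59 and Ier2 one of 0.38. In liver 4 of 10 rose and 1 fell, where 21.8% of all genes rose and 8.38% fell. Ccnd1, which encodes cyclin D1, averaged 49.4 ± 10.1 TPM in rMSA livers and 5.09 ± 1.40 TPM in saline livers (SD, n = 3 each, log2 fold change 3.06, adjusted p = 4.27e-05). Tgfa, an EGFR ligand, and Myc rose (log2 fold changes 0.89 and 0.67), and Ier2, an early response gene, fell (log2 fold change -0.52, adjusted p = 0.0340).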

How the data were processed

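The deposited tables hold TPM values that the authors made from BGISEQ-500 reads, with rRNA depletion per the methods and oligo(dT) purification per the labels. Per the submitters' processing notes, Trimmomatic 0.33, STAR 2.5.2b, featureCounts of Subread 1.6.0 and the GRCm38 genome were used. Which gene models and strand setting were used, and how TPM was computed, is not given in the sources used here. For the livers, 31 symbols stood as dates or numbers and were restored from gene identifiers. Sequencing depth cannot be had from TPM.

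Log2(TPM + 1) values of genes averaging 1 TPM or more were fitted with limma 3.58.1 in R 4.3.3 with a mean-variance trend, the 6 livers apart from the 12 AML12 libraries, whose 4 groups shared 1 fit, and adjusted by Benjamini-Hochberg. Calls required an adjusted p under 0.05. Alternatives added 0.1 or 5 TPM, used no filter or one at 5 TPM, centred medians, normalized quantiles, blocked on the replicate number, fitted only the groups compared, or left out libraries. rMSA and vehicle libraries of the same number deviated together (correlations 0.531, 0.139 and 0.577), which met the minimum of 0.1 set for pairing. For rMSA + insulin against insulin the correlations were 0.0954, 0.789 and 0.801, so only number 1 missed this minimum. The remaining comparisons did not meet it either, and no label says what a number marks. The 10 genes, the lists and the rule for named genes (all members, and in each list up to 4 passing genes of smallest p) were chosen with earlier results of these data known. Of the 5 genes most like Dusp6, 1 is not reported here. RefSeq (GRCm38.p6) supplied positions and promoters.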

Additional observations from a re-analysis of the deposited data

Results flagged for a closer look

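Spry4 moved in opposite directions in the 2 systems, and the difference between them was not tested because the tables were scaled separately. Its mean was lower by 0.947 TPM in rMSA livers than in saline livers (a difference of -0.947 TPM), with every rMSA liver below every saline liver. In AML12 cells its mean was higher by 0.403 TPM with rMSA than with vehicle, with every rMSA library above every vehicle library, but all 6 of these libraries were below 1 TPM. The liver call of Spry4 was lost under 6 of 12 alternatives. With no filter its AML12 difference did not pass with limma (adjusted p = 0.124). Groups of 3 were not searched for single outlying samples.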

How the results depend on the processing

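Of 857 recomputed fold changes of the members, 760 kept their direction and their side of the threshold. With the direction kept, 17 lost a call and 37 gained one. Another 43 changed sign, and all 43 belonged to values that had not passed. These 43 were counted by sign alone, whichever side of the threshold they then fell on. Etv4, Etv5, Phlda1 and Dusp5 against vehicle, and Dusp6 in liver, passed under every alternative in which they were tested. The replicate block left 1 member called in liver (2171 genes in place of 3442). It left 4, 4, 0, 0 and 0 members in the AML12 comparisons, with 727, 1587, 0, 292 and 0 genes in place of 844, 1871, 0, 438 and 4. It changed no other member call there. The libraries of liver and of the insulin comparisons did not meet the minimum set for pairing by number. A filter at 5 TPM tests fewer members. It left 1 of 3 tested members called in liver (2792 of 8083 genes). In AML12 cells it left 2 of 6 with rMSA against vehicle (610 of 8807 genes) and 2 of 6 with rMSA + insulin against insulin (1600 of 8807 genes). Fitting only the groups compared gave 7 member calls for rMSA against vehicle (2633 genes in place of 844) and 6 for rMSA + insulin against rMSA (4622 in place of 438), and 309 genes in place of 1871 for rMSA + insulin against insulin. For rMSA + insulin against rMSA, median centring gave 4 member calls (1377 genes) and quantile normalization 2 (1918 genes, and 1347 for rMSA against vehicle). Leaving out insulin replicates 1 and 2 gave 7 member calls for rMSA + insulin against insulin (3276 genes). Leaving out each replicate in turn gave 1 to 2 member calls in liver, 0 to 7 for insulin against vehicle, 0 to 6 for rMSA + insulin against rMSA and 0 to 1 for the interaction. Over all genes it gave 2332 to 3283 calls in liver, 492 to 1554 for rMSA against vehicle and 1036 to 5833 for rMSA + insulin against insulin. It gave 0 to 7415 for insulin against vehicle, 56 to 3380 for rMSA + insulin against rMSA and 0 to 336 for the interaction. The interaction otherwise called 0 to 8 genes and insulin against vehicle 0 to 23. The cause of these changes was not tested.

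Log2 fold changes that turned sign were as follows. Quantile normalization gave -0.013 for Spry2 and -0.12 for Etv5 in liver, and -0.015 for Spry2 with rMSA against vehicle. It gave -0.27 for Dusp4, -0.23 for Dusp6 and -0.027 for Spred1 with rMSA + insulin against insulin, and 0.058 for Spred1 with insulin against vehicle. Median centring gave -0.089 for Etv5 in liver, -0.24 for Dusp4, -0.22 for Dusp6 and -0.025 for Spred1 with rMSA + insulin against insulin, and 0.10 for Phlda1 with insulin against vehicle. Adding 5 TPM gave -0.029 for Dusp4 with rMSA + insulin against insulin. Without insulin replicates 1 and 2 the values with rMSA + insulin against insulin were -1.42 for Dusp4, -0.84 for Dusp6, -0.34 for Spred1 and -0.31 for Spred2. Those with insulin against vehicle were then 0.042 for Dusp4, 0.22 for Dusp6, 0.15 for Spry2, 0.17 for Spred1, 0.40 for Spred2 and 0.25 for Phlda1. Leaving out each replicate in turn, the ranges in liver were -0.23 to 0.058 for Spred1, -0.054 to 0.13 for Etv5 and -0.36 to 0.18 for Phlda1, and that of Spry2 with rMSA against vehicle was -0.066 to 0.22. With rMSA + insulin against insulin they were -0.63 to 0.74 for Dusp4, -0.44 to 0.48 for Dusp6, -0.33 to 0.25 for Spry2 and -0.067 to 0.52 for Spred1. Etv5 ranged from -0.090 to 0.19 with insulin against vehicle and from -0.054 to 0.20 with rMSA + insulin against rMSA, and Phlda1 from -0.013 to 0.14 with rMSA + insulin against rMSA.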
